A study of Mus musculus with 2 samples.

Results

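The cells described here are endometrial epithelial barcodes chosen by the summed transcripts of 5 genes, Syn2, Slc2a3, Gulo, Rdh1 and Dab1. They are called Syn2-gate cells, and few of them carried all 5. They numbered 281 of 7908 deposited barcodes, 265 in the Erbb3 f/f library and 16 in the Erbb3 d/d library. A barcode was a member when mitochondrial (mt-) genes gave at most 10% of its UMIs (unique molecular identifiers, 1 per captured probe pair) and when epithelial transcripts outnumbered stromal ones. The epithelial sum was over Epcam, Cdh1, Cldn3, Cldn7, Elf3 and Esrp1, and the stromal sum was over Col1a1, Col1a2, Col3a1, Pdgfra and Hoxd10. In addition, the summed UMIs of the 5 Syn2-gate genes had to be at least 2 and above the sums of each of the other gates. Those gates were 2 luminal ones (Slc5a11, Lrp2, Arvcf, Slc51a and Jam2, or Ptpn22, Bcl2l15, Arhgef38, Muc4 and Padi4), the Ltf and Clca3b gate (with Clca3a2, Ecm1 and Ppbp) and a cycling gate (Top2a, Tpx2, Kif11, Prc1 and Birc5). The members were thus chosen by the measured levels of all these genes, whose values are given below only as a description.

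Both libraries were made from the endometrium of mouse uteri on day 3 of pregnancy with a fixed-RNA, probe-based single-cell assay (10x Genomics Flex). The control animals carried Erbb3 f/f, the floxed gene, and the comparison animals carried Erbb3 d/d, in which the submitters describe Erbb3 as deleted in the stroma. ErbB3 is a receptor of the epidermal growth factor receptor family that binds neuregulins. The labels do not give the Cre driver, the number or age of the mice or whether tissue was pooled, and each genotype was 1 library. No difference between genotypes was therefore tested, the spread between animals is unknown, and every interval below is a 95% interval for counting error only.

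Uterine glands are invaginations of the luminal epithelium that secrete proteins, lipids and sugars into the lumen around the time of implantation. Their cells depend on the forkhead factor Foxa2, and the leukemia inhibitory factor Lif that glands release before implantation is needed for the uterus to accept the embryo. The luminal epithelium, by contrast, faces the embryo and stops dividing as progesterone rises.

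The libraries held 5783 f/f and 2125 d/d barcodes with 6819591 and 2866862 UMIs, read from probes to 19070 genes. The mt- limit left 5503 and 1830 barcodes. No full barcode occurred in both libraries, whereas 158 shared their first 16 bases, among them 9 f/f members and 1 d/d member. The f/f members held 255292 UMIs with a median of 768 per barcode, and the d/d members held 16243 with a median of 915. No doublet caller was run. In the stromal barcodes, where the labels place the deletion, Erbb3 itself was at 23.9 CPM (counts per 1000000 UMIs) in f/f (60 UMIs, 18.2 to 30.8) and at 10.4 CPM in d/d (7 UMIs, 4.16 to 21.3), so transcripts were still counted in d/d. Lower d/d levels were also counted outside stroma, with intervals that overlapped, as they did in stroma. In epithelial barcodes of no gate, Erbb3 was at 86.4 CPM in f/f (58.7 to 122.7) and 39.7 CPM in d/d (19.0 to 73.0). In those of the other gates it was at 74.5 (62.1 to 88.8) and 51.0 CPM (33.0 to 75.3). Among these gates, the Muc4 and Ptpn22 one alone went the other way, at 38.7 (4 UMIs) and 74.1 CPM (7 UMIs). Whether the probes lie inside the deleted part was not given in the sources used here.

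Syn2-gate cells made up 12.1% of the 2191 epithelial barcodes of the f/f library (10.8 to 13.5%) and 1.98% of the 807 of the d/d library (1.14 to 3.20%). The d/d share was 10.1 percentage points lower, with a counting interval of -11.8 to -8.30. Of the epithelial barcodes, the Lrp2 and Slc5a11 luminal gate took 55.0% in f/f but 8.43% in d/d, the cycling gate took 7.99% and 35.6%, and 19.0% and 39.5% reached no gate. The same sum rule was met by 9.19% of f/f stromal barcodes (223 of 2426, median depth 784 UMIs) and by 2.73% of d/d stromal barcodes (18 of 659, median depth 771 UMIs). The share among f/f epithelial barcodes was thus above the stromal one, whereas the d/d epithelial share was not above the share in stroma of the same library. The sum of the gate genes also differed between the libraries outside the gate. The 5 genes together were at 618 CPM in f/f and 213 CPM in d/d stromal barcodes, and at 677 and 171 CPM in ungated epithelial barcodes. Syn2, Slc2a3, Gulo and Rdh1 were lower in d/d in both classes, with intervals below 0. Dab1 was not clearly so, with log2 ratios of -0.18 (-0.61 to 0.24) in stroma and -0.42 (-1.68 to 0.76) in ungated cells. RNA shed from other cells and transcripts of the barcode's own cell cannot be told apart, and the part of free RNA in the difference was not tested.

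The rule had a threshold of 2 UMIs, and barcodes just below it were numerous. A gate sum of 1 was found in 400 f/f and 81 d/d epithelial barcodes, and a sum of exactly 2 in 59 f/f and 3 d/d members. A further 237 of the 502 f/f epithelial barcodes with a sum of 2 or more, and 20 of 36 in d/d, stayed out because another gate was as high or higher. The median sum was 4 in f/f members (highest 32) and 3.5 in d/d members (highest 10).

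The 5 genes that define the gate have unlike functions. Slc2a3 encodes the glucose transporter GLUT3, Gulo the last enzyme of vitamin C synthesis, Rdh1 a retinol dehydrogenase, Syn2 a synapsin of secretory vesicles and Dab1 the adaptor of reelin receptors. Slc2a3 carried most of the gate: it gave 54.0% of the gate UMIs of f/f members and 65.7% of those of d/d members. A Slc2a3 UMI was found in 12 of the 16 d/d and 219 of the 265 f/f barcodes, and it was the one gate gene present in 47 f/f and 6 d/d members. In f/f members the levels were 2699 CPM for Slc2a3, 838 for Gulo, 560.1 for Dab1, 474 for Rdh1 and 431 for Syn2. In d/d members Slc2a3 was at 2832 CPM (46 UMIs), Dab1 at 677 (11 UMIs) and Syn2 at 554 (9 UMIs), but Gulo was at 185 (3 UMIs) and Rdh1 at 61.6 (1 UMI). Relative to f/f members, the log2 level of Gulo in d/d members was -2.18 (-4.47 to -0.62) and that of Rdh1 was -2.94 (-8.26 to -0.44). Both genes are part of the sum that chose the members, so these ratios only describe the chosen barcodes. At least 2 of the 5 genes were seen together in most f/f members, with 111 barcodes holding 2 of them, 63 holding 3, 28 holding 4 and 6 holding all 5. Among d/d members the counts were 6, 2, 1 and 0, and 0 of 16 allows a share of up to 18.75% (3 counts of 16) of barcodes with UMIs of all 5.

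Known gland genes, none of which was used by the gate, separated the f/f members from the other gated epithelium. Foxa2, the chemokine Cxcl15 (lungkine), the protease inhibitors Spink1 and Wfdc3 and the implantation serine proteases Prss28 and Prss29 were summed. In f/f the sum was 282 CPM in Syn2-gate cells (72 UMIs, 221 to 355) and 28.0 CPM in the other gated cells (47 UMIs, 20.6 to 37.3), a log2 ratio of 3.33 (2.78 to 3.89). Ungated f/f epithelial barcodes stood between them at 145 CPM (52 UMIs), and the log2 ratio of members over these was 0.96 (0.43 to 1.50). Stromal f/f barcodes were at 51.0 CPM. Of the 171 known gland UMIs in f/f epithelial barcodes, 42.1% lay in Syn2-gate cells, 30.4% in ungated cells and 21.6% in the Lrp2 and Slc5a11 luminal gate.

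**Figure D1:**
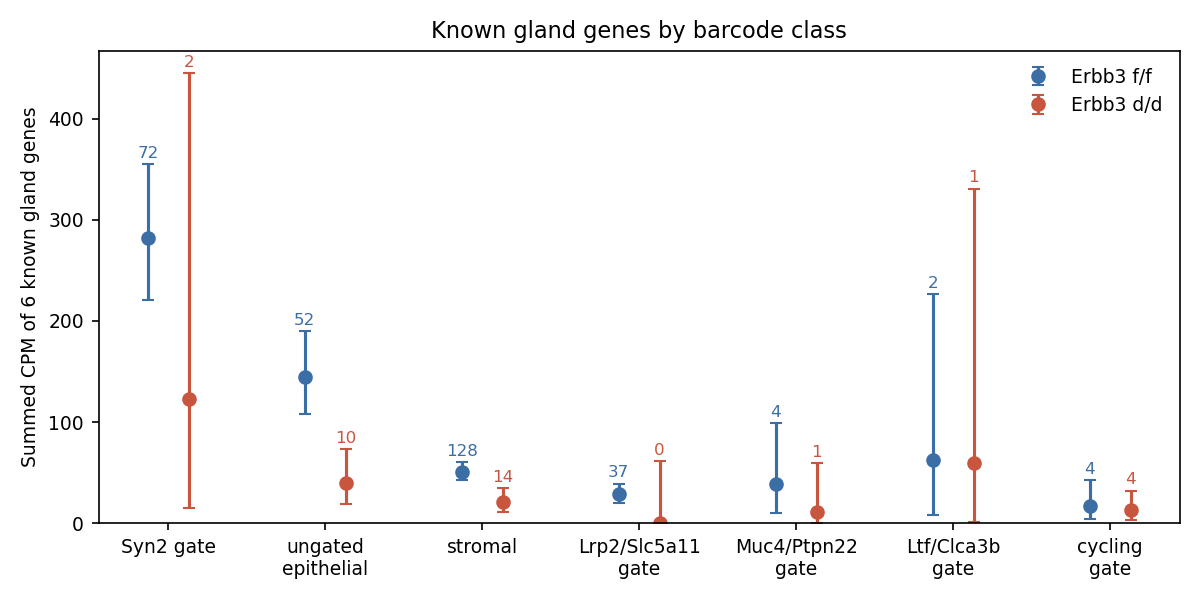
Summed level of Foxa2, Cxcl15, Spink1, Wfdc3, Prss28 and Prss29 (CPM, linear axis) in each barcode class of the Erbb3 f/f and Erbb3 d/d libraries; points are sums over all barcodes of a class, bars are exact 95% Poisson intervals for counting error, and the number above each point is its UMI count. The f/f Syn2-gate cells, at 282 CPM, stand above every other f/f class, while the d/d value rests on 2 UMIs and its bar spans 14.9 to 445 CPM.

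At the level of single cells, a UMI of any of the 6 genes was found in 21.1% of f/f members (56 of 265, median depth 768), in 2.32% of other gated cells (median depth 949) and in 4.25% of stromal barcodes (median depth 784), the last of which serves as the background. After every barcode was thinned to 500 UMIs, the shares were 12.9% of 264 members, 1.19% of 1509 other gated cells and 2.11% of 2412 stromal barcodes, with 1, 1 and 14 shallower barcodes left out. The members stayed above both other classes by these counts. Ungated f/f epithelial barcodes stood between, at 8.41% (median depth 747) and, after thinning, 5.06% of 415. The stromal background is not free of gate transcripts. It includes 223 barcodes that met the rule for the 5 gate genes, and these held 50 known gland UMIs against 78 in the other stromal barcodes.

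The genes differed in how far they marked the members. Cxcl15 gave 41 of the 72 UMIs, at 160.6 CPM in f/f members against 14.3 CPM in other gated cells and 83.6 CPM in ungated cells. Foxa2 was at 58.8 CPM (15 UMIs) against 5.37 CPM, Spink1 at 31.3 against 2.98 and Wfdc3 at 27.4 against 4.17. Sox9, a progenitor and gland-associated transcription factor, was at 90.1 CPM in members and 19.7 CPM in other gated cells, and Ttr, the thyroxine and retinol carrier, at 54.8 and 12.5 CPM. The late gland products were near the detection limit on this day. Prss28 and Klk1 had 0 UMIs in f/f members, which allows up to 11.8 CPM for each, and Prss29 had 1 UMI. Lif also had 1 UMI, or 3.92 CPM (0.099 to 21.8), which cannot be told from the 8.35 CPM (14 UMIs) of other gated f/f cells. Sums of 7 glandular markers, with Sox9 added, were 372 CPM in members and 47.7 CPM in other gated cells of f/f, with Prss28 the one marker at 0.

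The level of known gland genes showed no order among members with higher or lower gate sums. In f/f epithelial barcodes with a gate sum of 0 the known gland sum was 24.3 CPM. It was 194 CPM at a sum of 2, 297 at 3, 209 at 4 and 330.0 at 5 or more, and these intervals overlapped. The 40 barcodes with a sum of 1 that lay above all other gates, just outside the rule, were at 341 CPM (9 UMIs, 156 to 647). Barcodes with a sum of 2 or more that another gate equalled or exceeded were at 99.8 CPM.

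**Figure D2:**
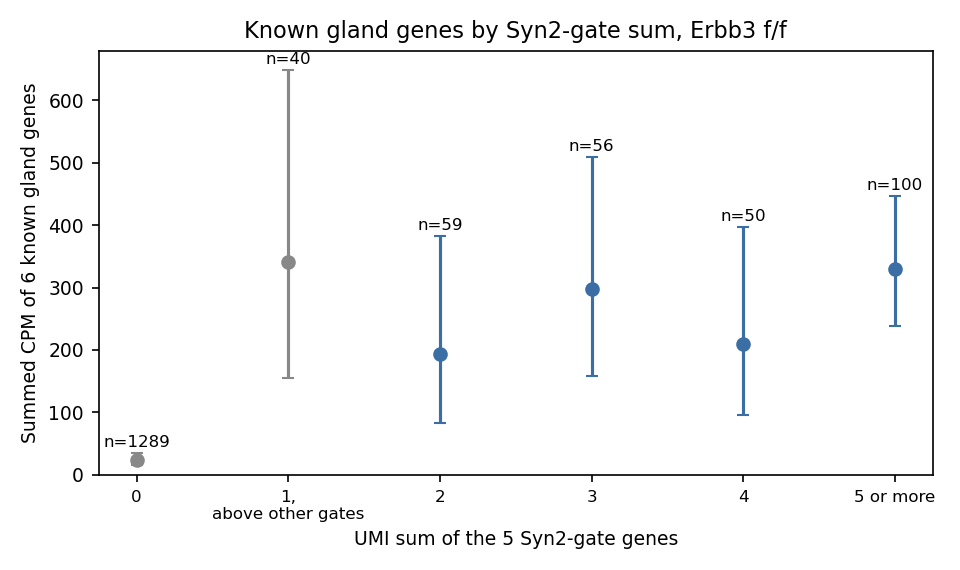
Summed level of the 6 known gland genes (CPM, linear axis) in Erbb3 f/f epithelial barcodes, by the UMI sum of the 5 gate genes; grey points lie outside the gate, blue points are members, bars are exact 95% Poisson intervals and n is the number of barcodes. Barcodes with a sum of at least 1 above the other gates ran from 194 to 341 CPM, all above the 24.3 CPM of barcodes with a sum of 0; barcodes in which another gate was as high are not drawn.

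In the d/d library the gland label could not be checked firmly, because the 16 members held few UMIs of these genes. The 7 glandular markers summed to 246 CPM in d/d members (4 UMIs, 67.1 to 631), against 46.9 CPM in other gated d/d cells (23 UMIs). Ungated d/d cells were at 107 CPM (27 UMIs, 70.6 to 156), inside the interval of the members. Of the 4 UMIs of members, 2 were of Sox9. Of the 7, Cxcl15, Spink1, Wfdc3 and Prss28 were at 0, where 0 UMIs allow up to 185 CPM, a limit above the level of each in f/f members. The known gland sum rested on 2 UMIs, 1 of Foxa2 and 1 of Prss29, in 2 different barcodes, or 123 CPM (14.9 to 445), against 12.2 CPM in other gated d/d cells (6 UMIs). The log2 ratio of members over other gated cells was 3.33 with an interval of -0.01 to 5.81. Over ungated d/d cells it was 1.63 (-1.60 to 3.86), so at this depth the members were not separated from either set. Set against f/f members, the log2 ratio was -1.20 (-4.27 to 0.71), and a difference was not detectable. Without the mt- limit this ratio became 1.69, since 1 d/d barcode with 45.8% mt- UMIs and 31 known gland UMIs then entered. Over all epithelial barcodes the known gland sum was lower in d/d, with 18 UMIs against 171 and a log2 ratio of -1.65 (-2.44 to -0.95). Of those 18 UMIs, 10 lay in ungated cells and 2 in members. The sum was also lower in d/d stromal barcodes, at 20.7 CPM (11.3 to 34.7) against 51.0 CPM (42.5 to 60.6) in f/f. The ratio over all epithelial barcodes leaves out those over the mt- limit. In d/d those held 34 known gland UMIs where the rest of the rule was met and 14 where it was not, against 26 and 9 in f/f.

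The sum of 5 luminal markers was below that of the other gated cells in f/f members and above it in d/d members, mostly through Calb1. Calb1, Wnt7a, Lpar3, Msx1 and Krt13 summed to 1293 CPM in f/f members, below the 2949 CPM of other gated f/f cells. In d/d members the sum was 3755 CPM (61 UMIs, 2873 to 4824), above the 2563 CPM of other gated d/d cells, with Krt13 at 0. Calb1 was at 294 CPM in f/f members against 1867 CPM in other gated cells, and at 2524 against 1360 CPM in d/d. The other markers did not all follow the sums. Msx1 was at 971 against 878 CPM in f/f and at 923 against 863 CPM in d/d. Wnt7a was lower in members of both libraries, at 15.7 against 110 CPM and at 123 (2 UMIs) against 271 CPM. With high Calb1 and few gland transcripts, the d/d members are named here by the gate and not as gland cells. Markers of other cell types were summed as well. Stromal markers (Dcn, Lum, Pdgfrb, Hoxa11, Hand2 and Vim) summed to 247 CPM in f/f members, 116 CPM in other gated f/f cells and 1746 CPM in stromal barcodes, and in d/d members to 1 UMI. Plasma and B cell markers, of which Jchain and Cd79a were at 0, summed to 208 CPM in f/f members. They summed to 127 CPM in other gated f/f cells and 295 CPM in f/f stroma. Of these, Mzb1 was highest in members, at 129 CPM against 81.1 CPM in other gated cells and 29.9 CPM in stroma. Igha was at 78.3, 45.3 and 241 CPM in the same order. In d/d members 3 UMIs of these markers, all of Igha, were found. Endothelial, macrophage, T and NK cell, mesothelial, smooth muscle and ciliated cell markers summed to between 3.92 and 78.3 CPM in f/f members, and in d/d members only 3 mesothelial UMIs were seen among them.

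Outside the known gland genes, f/f members differed from the other gated epithelium in many transcripts, of which 15 with the highest ratio are described. Among 8699 genes with at least 30 UMIs, 557 were more than 2-fold higher in members (6.4%) and 1035 more than 2-fold lower (11.9%). The median log2 ratio of all counted genes was 0.01. The cells of the 2 sets came from the same library and were divided by transcripts, so these ratios describe the division and carry no test. The 15 genes were together at 2569.6 CPM in members and 245 CPM in other gated cells, a log2 ratio of 3.39, and at least 1 of their UMIs was present in 224 of 265 members.

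The highest ratio was that of Bpifb5, a secreted protein of the BPI fold family, at 204 CPM (52 UMIs in 23 barcodes) in members against 13.7 CPM. The others included the tetraspanin Tspan12 (137 against 9.54 CPM), the focal adhesion protein Tns4 (157 against 11.3 CPM), the guidance factor Ntn1 (157 against 13.1 CPM) and the ion-selective tight junction claudin Cldn10 (102 against 8.35 CPM). Atp6v0a4, a proton pump subunit, Krt23, a type I keratin, and Grin2b, a glutamate receptor subunit, followed with log2 ratios of 3.56, 3.40 and 3.26. The most abundant was Cbs, the enzyme that makes cystathionine from homocysteine, at 478 CPM in members, 52.5 CPM in other gated and 145 CPM in ungated cells. Sh3rf2 was second in abundance at 313 against 34.0 CPM. Fam83a, Rnase4, Sorcs2 and Sidt1 had log2 ratios of 3.26, 3.18, 3.17 and 3.13, and Cxcl15 was also among the 15. Rnase4 was nearly as high in stroma (63.7 CPM) as in members (70.5 CPM).

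**Figure D3:**
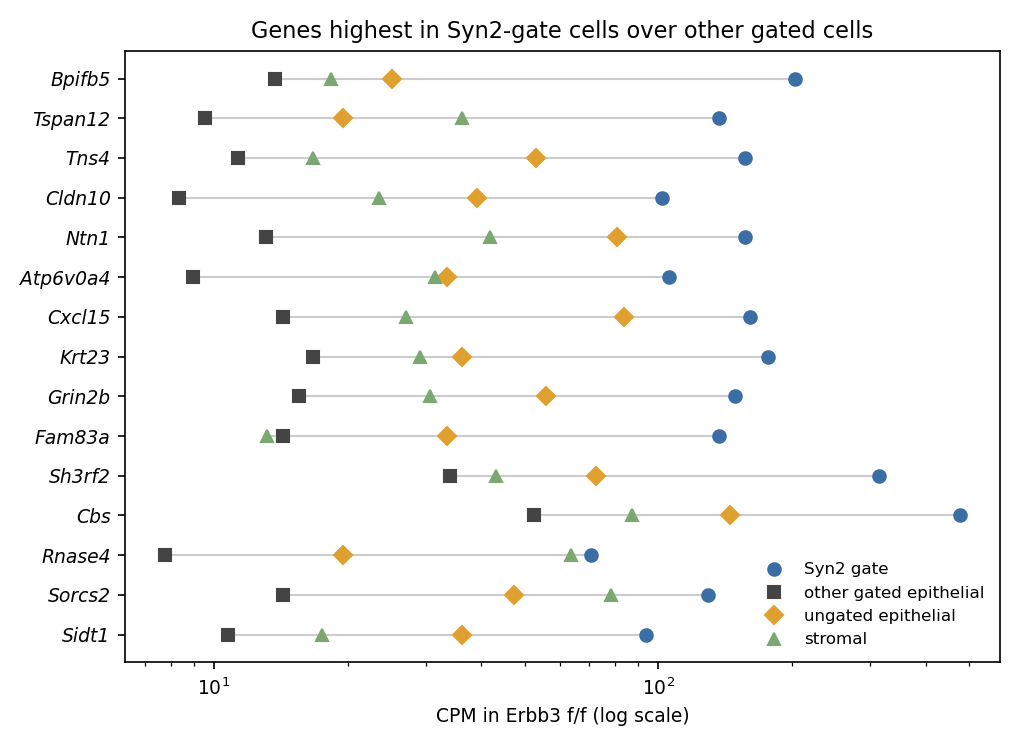
Levels (CPM, log axis) of the 15 genes with the highest ratio of Syn2-gate over other gated epithelial cells in the Erbb3 f/f library, each point a sum over all barcodes of the class named in the legend. Syn2-gate cells lie to the right for all 15, from 70.5 CPM for Rnase4 to 478 CPM for Cbs, and ungated epithelial cells lie between members and other gated cells.

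The same 15 genes were then read in the d/d library, which had not been used to choose them. They summed to 3201 CPM in d/d members (52 UMIs) and 392 CPM in other gated d/d cells, a log2 ratio of 3.03 (2.56 to 3.48), and were present in 14 of 16 members. The ratio was close to the 3.39 of f/f, but it rested mainly on 1 gene: Cbs gave 34 of the 52 UMIs. Krt23 followed with 6 UMIs in 4 barcodes, at 369 CPM against 16.3 CPM (log2 ratio 4.50, 2.69 to 6.22). In all, 9 of the 15 had any UMI in d/d members, and Bpifb5, Cldn10, Cxcl15, Fam83a, Rnase4 and Sidt1 had none. Atp6v0a4, Grin2b and Sh3rf2 had 1 UMI each. All 9 were higher in members than in other gated cells, but for all but Cbs 1 UMI was enough for that. A single UMI is worth 61.6 CPM in d/d members, and these genes were at 48.9 CPM or less in other gated d/d cells. The count of 9 therefore says only that they were detected.

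The 10 genes lowest in f/f members against the other gated cells had 1 to 5 UMIs there. Tmod1 and Tmod2, which cap actin filaments, were at 19.6 against 243 CPM and at 3.92 against 167 CPM. Lpar3, the lysophosphatidic acid receptor of the receptive luminal epithelium, was at 7.83 (2 UMIs) against 87.7 CPM. Ndc80, Eme1, Ccdc18 and Depdc1b, which act in cell division or DNA repair or are known from dividing cells, and Syt8, Atf7ip2 and Arhgap8 had 1 UMI each. The rule kept out barcodes in which cycling genes were as high as the gate genes, and the other gated cells include the cycling gate. Low levels of division genes in members therefore only describe the rule. In d/d the 10 genes summed to 677 CPM in members (11 UMIs) and 1067 CPM in other gated cells, a log2 ratio of -0.66 with an interval of -1.67 to 0.20. The cycling gate gave 287 of the 472 other gated barcodes in d/d but 175 of 1510 in f/f, so the cells compared with were not alike.

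The gene lists were read next, beginning with secretion and junctions, as gland cells are secretory. Over all 8699 counted genes, 50.6% were higher in f/f members than in other gated cells (4404 genes) and 6.4% more than 2-fold, and the list counts are to be read against these shares. Of 16 counted secretory pathway genes, 14 were higher, 4 of them more than 2-fold, and the median log2 ratio was 0.53. Xbp1, the transcription factor of the secretory stress response, was at 968 against 359.6 CPM. Creb3l2, a related membrane-bound factor, was at 168 against 48.3 CPM, the translocon subunit gene Ssr4 at 223 against 97.8 CPM and the proprotein convertase gene Furin at 208 against 103 CPM. Spdef, a factor of secretory cell differentiation with too few UMIs to be counted, had 12 UMIs in members and 6 in all other gated cells. Of the 12 counted synaptic and secretory vesicle genes, 7 were higher and the median was 0.08, near the share and median of all genes. Rab3a (47.0 against 14.3 CPM) and Sytl1 (106 against 47.1 CPM) were the 2 past 2-fold. Junction genes were mixed, with 7 of 15 higher: Cldn4 was at 227 against 85.3 CPM and Cldn8 at 43.1 against 17.9 CPM, while Cldn1 was at 11.8 against 50.1 CPM and Ocln at 78.3 against 162 CPM.

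Genes around the functions of the 5 gate genes were read from lists without the gate genes themselves. Of 10 counted retinoid genes, 4 were higher in members and the median was -0.099. Rdh10, which oxidises retinol to retinal, was at 666 against 202 CPM, whereas the retinol-binding protein receptor Stra6 was at 43.1 against 285 CPM and the receptor Rarg at 35.3 against 177 CPM. Of 14 counted glycolysis and glycogen genes, 9 were higher with a median of 0.16 and 1 was past 2-fold, shares near those of all genes. That gene was Hk2, which phosphorylates glucose, at 494 against 239.8 CPM. Among 5 counted ascorbate genes, Ugdh was at 74.4 against 31.6 CPM and Gsto1 at 168 against 849 CPM. Of 8 counted reelin pathway genes, 1 was higher and the median was -0.56, and the reelin receptor genes Vldlr and Lrp8 had 2 UMIs each in members.

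Hormone and growth factor genes split within their lists. Esr1, the estrogen receptor, was at 1653 CPM in f/f members and 771 CPM in other gated cells, and the estrogen target Greb1 at 97.9 against 19.1 CPM. Pgr, the progesterone receptor, was at 204 against 416 CPM, and Sgk1, a kinase regulated by salt and steroid signals, at 161 against 812 CPM. Ihh, the hedgehog ligand induced by progesterone, was nevertheless at 145 against 44.7 CPM, and the growth factor Areg at 58.8 against 15.5 CPM. Of the 16 counted members of this list, 6 were past 2-fold higher and 6 past 2-fold lower.

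In the ErbB system, Egfr was at 23.5 CPM in f/f members against 120.5 CPM in other gated cells, and Erbb2 at 62.7 against 185 CPM. Erbb3 was at 86.2 CPM (22 UMIs) against 74.5 CPM, a log2 ratio of 0.21 with an interval of -0.52 to 0.87. Erbb4 had 0 UMIs. Of the ligands, Nrg4 was at 172 against 63.8 CPM, and the stromal level was 29.9 CPM. Nrg4 had 0 UMIs in d/d members, which allows up to 185 CPM and so cannot be told from the f/f level. Erbb3 had 1 UMI in d/d members.

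Wnt pathway genes had 9 of 20 counted members higher, near the 50.6% of all genes, and a median of -0.15. Axin2, a target of canonical Wnt signalling, was at 153 against 48.3 CPM, and Tcf7l2 at 157 against 65.0 CPM. The ligand Wnt11 was at 70.5 against 350.1 CPM, Wnt5a at 39.2 against 101 CPM, and Wnt7b had 0 UMIs in members against 54 in other gated cells, a log2 ratio of at most -1.45. Of 14 counted epithelial transcription factors 4 were higher, none past 2-fold; Sox17 was at 819 against 953 CPM and Pax8 at 544 against 457 CPM. None of the 26 counted proliferation genes was higher in members, and the median was -1.64, but the gate itself removed barcodes in which cycling genes were as high as the 5 gate genes. Immediate early and heat shock genes had 3 of 10 higher, with Jun at 27.4 against 182 CPM and Ier3 at 94.0 against 38.2 CPM. Of 9 counted luminal genes, 5 were higher: Ihh, Areg and Hpgd, a prostaglandin-degrading enzyme (74.4 against 14.9 CPM), stood on 1 side and Calb1, Wnt7a and Lpar3 on the other.

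The comparison of d/d with f/f members was limited by the 16 d/d barcodes. Only 338 genes reached 100 UMIs over both libraries, with a median of 8 d/d UMIs, and because f/f gave most of the UMIs, a gene low in f/f was rarely counted. Of these, 14 were more than 2-fold higher in d/d (4.14%) and 59 more than 2-fold lower (17.5%), with a median log2 ratio of -0.17. TMM scaling, which rests on genes with like levels, shifted all log2 ratios by -0.45, and the split became 6 higher and 111 lower. Values below are scaled by total UMIs.

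Calb1, the calcium-binding protein of the luminal epithelium, was at 294 CPM in f/f members (75 UMIs) and at 2524 CPM in d/d members (41 UMIs in 11 of 16 barcodes), a log2 ratio of 3.10 (2.52 to 3.67). In the other gated cells the ratio was -0.46 (-0.58 to -0.34). These cells were not made up alike, since the Lrp2 and Slc5a11 gate gave 1204 of 1510 in f/f but 68 of 472 in d/d, and the cycling gate 175 and 287. Within the Lrp2 and Slc5a11 gate, Calb1 was at 2025 CPM in f/f and 2137 CPM in d/d. The log2 ratio of f/f members over other gated f/f cells was -2.67 for Calb1, while the level in d/d members was near that of the luminal gate. A Calb1 UMI was present in 13.2% of f/f members (9.37 to 17.9%) and 68.8% of d/d members (41.3 to 89.0%). The Calb1 ratio was 2.20 without the mt- limit and 2.37 when Slc2a3 was dropped from the gate. Calb1 gave 41 of the 61 luminal marker UMIs of d/d members, and the part of luminal cells in this difference was not tested.

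Cbs was at 478 CPM in f/f members and 2093 CPM in d/d members (34 UMIs in 13 of 16 barcodes), a log2 ratio of 2.13 (1.54 to 2.69). It was also higher in d/d in the other gated cells, by 1.50 on the log2 scale (1.04 to 1.97), where the Lrp2 and Slc5a11 gate went from 56.1 to 646 CPM. In stroma Cbs was at 87.2 and 62.1 CPM. Calb1 and Cbs were found in the same barcode in 8 of 16 d/d members and in 11 of 265 f/f members.

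Further genes of epithelial transport and metabolism were higher in d/d than in f/f members. Atp1b1, the sodium pump beta subunit, was at 1543 CPM in f/f and 5171 CPM in d/d members (log2 ratio 1.74, 1.39 to 2.09), Hdc, the histamine-forming enzyme, at 560.1 and 1785 CPM (1.67), Il17rb, the interleukin 25 receptor, at 572 and 1724 CPM (1.59), and Dcxr, a carbonyl reductase, at 584 and 1416 CPM (1.28). Among the other gated cells, which differed in makeup, the log2 ratios of these genes in d/d against f/f were -1.16, -1.22, -0.69 and -1.42. Within the Lrp2 and Slc5a11 gate alone the order was not shared: Atp1b1 was at 3093 CPM in f/f and 2154 CPM in d/d, Hdc at 1829 and 1856 CPM, Il17rb at 1287 and 2452 CPM, and Dcxr at 1483 and 1326 CPM. Hook1 (1.64), Nt5c2 (1.32), Hjurp (1.22) and Mbd2 (1.17) completed the 10 highest. The values for Hdc and Hook1 turned to -0.24 and -0.55 when Slc2a3 was dropped from the gate, which left 8 d/d members. The Atp1b1 ratio was 0.94 under that change and 0.62 without the mt- limit. Single barcodes weighed on these sums: 1 d/d barcode gave 21 of the 84 Atp1b1 UMIs and 1 gave 10 of the 29 Hdc UMIs.

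**Figure D4:**
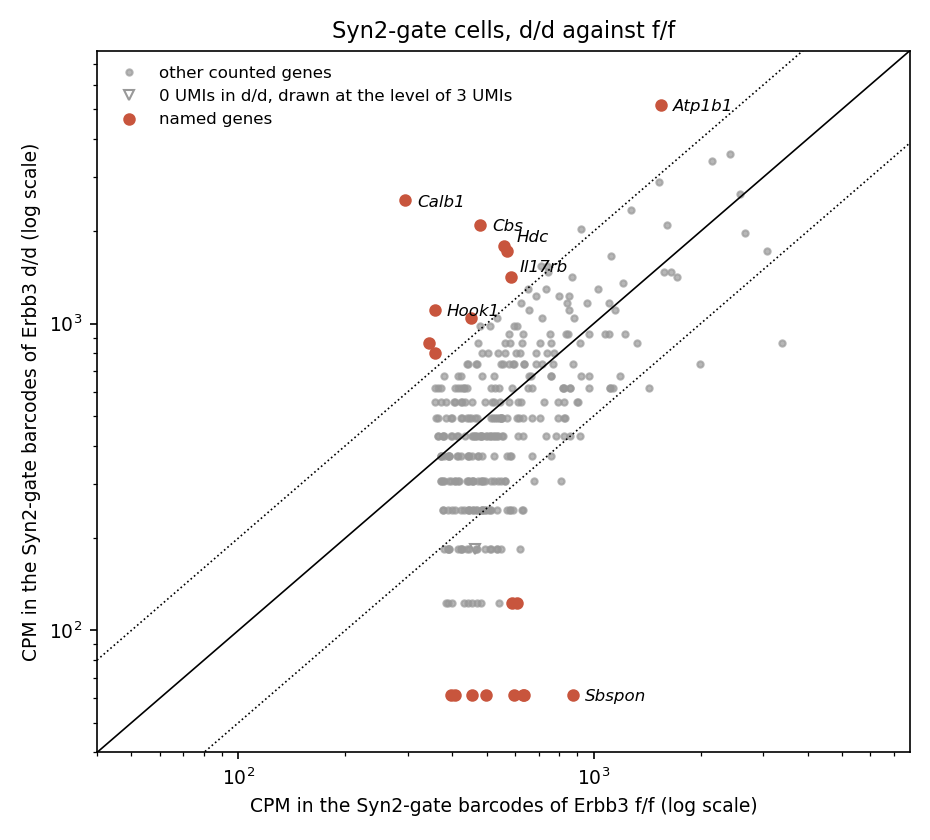
Level of each of the 338 counted genes in Syn2-gate cells of Erbb3 d/d (vertical) against Erbb3 f/f (horizontal), in CPM on log axes; each point is 1 gene, red points are the named genes, the solid line marks equal levels and the dotted lines 2-fold. Calb1, at 294 and 2524 CPM, and Cbs, at 478 and 2093 CPM, lie farthest above the line, the lowest points are genes with 1 UMI in d/d, and the triangle is the gene with 0 UMIs, drawn at the level of 3.

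The 10 lowest ratios all rested on 1 or 2 d/d UMIs and so carry wide intervals. Sbspon, a secreted somatomedin B and thrombospondin domain protein, was at 874 CPM in f/f members (223 UMIs) and 61.6 CPM (1 UMI) in d/d members, a log2 ratio of -3.83 (-9.14 to -1.33). In the other gated cells of the same libraries its ratio was -0.22 (-0.60 to 0.15). In f/f it was at 179 CPM in the Lrp2 and Slc5a11 gate, so it was higher in members than in luminal cells there. Adamts16, an extracellular protease, was at 638 and 61.6 CPM and the homeobox factor Pknox2 at 595 and 61.6 CPM. Both were also lower in d/d among other gated cells, with log2 ratios of -2.54 and -1.80. Cwc22, Cyth2, Hsph1, Ccnl1, Ddx21, Papola and Tmem176b, with ratios from -3.36 to -2.25, were the other 7. Fads2, the fatty acid desaturase, was ranked by its bound and is named after its values were seen. It had 118 UMIs in f/f members (462 CPM) and 0 in d/d members, a log2 ratio of at most -1.32, and was also lower in d/d among the other gated cells (-1.67).

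The 16 d/d members fell into unlike barcodes. In 6 of them Slc2a3 was the one gate gene, and these held 25 of the 41 Calb1 UMIs, 4658 CPM (3014 to 6876), and 0 known gland UMIs, which allows up to 559 CPM. The 10 with another gate gene were at 1471 CPM for Calb1 (841 to 2389) and held both known gland UMIs. In f/f the same division gave 346 CPM of Calb1 in the 47 members with Slc2a3 alone and 286 CPM in the other 218, and the known gland sum was 202 CPM (7 UMIs) and 295 CPM (65 UMIs). The sum of the 15 genes above was alike across this division, at 3168 and 3218 CPM in d/d and 2567 and 2570.0 CPM in f/f. In d/d, however, Cbs gave 16 of the 17 UMIs of this sum in the 6 barcodes with Slc2a3 alone. In the other 10 it gave 18 of 35, so the rest of the sum lay mostly in those barcodes. The barcodes of d/d in which Krt23 or a known gland UMI occurred, 4 of 16, had no Calb1 UMI.

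**Figure D5:**
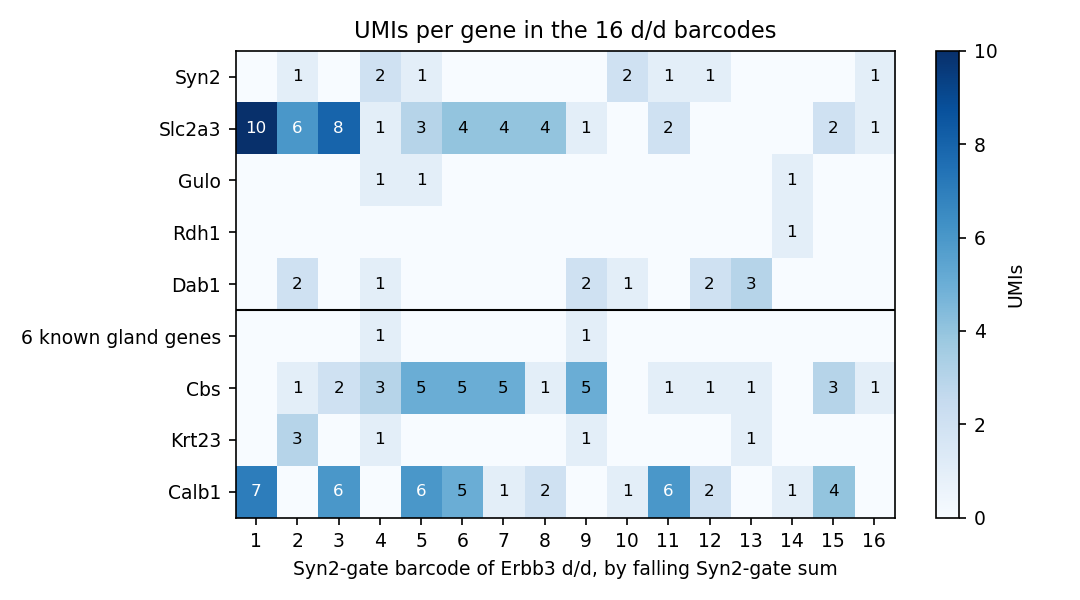
UMIs of the 5 gate genes (above the line) and of the 6 known gland genes as a sum, Cbs, Krt23 and Calb1 (below it) in each of the 16 Erbb3 d/d Syn2-gate barcodes, ordered by gate sum; the shade and the number give the UMI count and empty cells are 0. Calb1 is present in 11 barcodes and absent from the 4 that hold Krt23, and known gland UMIs occur in 2.

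Barcodes that met the gate sums were also found outside the epithelial class. In f/f, 223 barcodes with a higher stromal sum and 155 with equal sums (116 of them with 0 UMIs in both sums) met the rule for the 5 genes. Their known gland sums were 178 CPM (50 UMIs) and 195 CPM (24 UMIs), against 35.0 and 55.6 CPM in the stromal and equal-sum barcodes that did not meet it. In d/d, 18 and 11 barcodes met the rule, with 0 and 3 known gland UMIs. Without the epithelial condition the rule was met by 11.7% of all f/f barcodes under the mt- limit and 2.46% of d/d barcodes, an alternative chosen after seeing the data. Whether barcodes with both stromal and gate transcripts held 2 cells was not tested.

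Promoters were looked up for the gate genes and the 10 known gland genes as a description of both sets. Of the latter, Prss28, Prss29, Klk1 and Lif had at most 1 UMI in f/f members. The RefSeq table (GRCm38.p6) gave 5 promoters for 3 of the gate genes and 9 for 7 of the known gland genes, each of 300 bases, from 250 before to 50 after the start. The motifs searched on both strands were TGTTTAC of forkhead factors, a nuclear receptor motif (AGGTCA) that the estrogen receptor recognises, and TGTTCT of the progesterone and glucocorticoid receptors. The forkhead motif was in 0 of 5 and 0 of 9 promoters, and 3.65% of all 32851 promoters in the table hold it. AGGTCA was in 0 of 5 and 3 of 9 (16.3% of all), and TGTTCT in 1 of 5 and 2 of 9 (19.0% of all). The 250 bases before the start are shown for Rdh1 (chr10:127759513-127759762, plus strand), the one gate gene with a match, and for Wfdc3 (chr2:164743268-164743517, minus strand), the known gland gene with matches to both of these motifs, with matches in capitals (its TGTTCT matches lie after the start and are not shown). A match is a description of letters and not a binding site.
Rdh1: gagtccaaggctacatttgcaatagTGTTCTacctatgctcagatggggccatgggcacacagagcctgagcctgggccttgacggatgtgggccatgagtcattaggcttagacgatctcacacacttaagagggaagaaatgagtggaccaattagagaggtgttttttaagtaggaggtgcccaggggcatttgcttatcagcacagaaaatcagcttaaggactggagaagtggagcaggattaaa
Wfdc3: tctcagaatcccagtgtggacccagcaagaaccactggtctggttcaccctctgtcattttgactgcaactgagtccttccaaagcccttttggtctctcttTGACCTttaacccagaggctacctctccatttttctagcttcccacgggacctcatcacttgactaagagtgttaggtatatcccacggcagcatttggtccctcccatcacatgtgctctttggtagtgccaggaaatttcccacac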

How the data were processed

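Single-cell RNA was measured with the 10x Genomics Flex probe assay in 1 library of Erbb3 f/f and 1 of Erbb3 d/d endometrium on day 3 of pregnancy. The deposited UMI counts per gene and barcode were made by the authors with Cell Ranger 9.0.0, per the file headers. The submitters' processing notes name both mm10 and GRCm39, and the build each step used is not given in the sources used here. Barcodes were already filtered to called cells, and no doublet was removed.

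From these counts, barcodes were classed by UMI sums as described, with an mt- share of at most 10%, and counts were summed per class and library. Levels are CPM of the class total. Intervals are exact at 95%: Poisson for levels, Clopper-Pearson for shares and conditional binomial for ratios. A count of 0 was read as at most 3. Ratios between classes used genes with at least 30 UMIs, and those between libraries genes with at least 100. Named genes were the 15 highest and 10 lowest ratios between classes and the 10 highest and 10 lowest between libraries, with intervals off 0 and, for the latter, f/f stromal levels at most 5 times those of members. All known gland genes and members of the other lists with log2 ratios beyond 1 could also be named. The 5 gate genes were left out of all 15 gene lists, and 1 gene each of the luminal and retinoid lists is not reported here. With 1 library per genotype no test was made. The gate, the cell type markers and the gene lists were chosen with earlier results of these data known. Promoters came from RefSeq (GRCm38.p6). The calculations used Python 3.11.15, numpy 2.4.6, scipy 1.17.1, matplotlib 3.10.9 and, for TMM factors alone, edgeR 4.0.16, and were tested on simulated data. Alternatives were 17 planned settings, 13 of them changes to the gate or cell filters, and 1 added after seeing the data. Columns of other series: 0. Intervals and floors cover counting error only.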

Additional observations from a re-analysis of the deposited data

Results flagged for a closer look

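Known gland transcripts were present in barcodes that no comparison used, because their mt- share was above 10%. In f/f, 18 of the 280 barcodes over the limit met the rest of the Syn2-gate rule, with a median of 5649 UMIs, and they held 26 known gland UMIs, or 209 CPM (137 to 306). The other 91 epithelial barcodes over the limit held 9 UMIs, or 10.8 CPM. In d/d, 2 of 295 met it and held 34 known gland UMIs, or 1260.5 CPM (873 to 1761), against 14 UMIs in the 93 other epithelial barcodes over the limit. Both counts were above the 3 UMIs that a count of 0 allows. A single d/d barcode, with 20929 UMIs of which 45.8% were mt-, gave 31 of the 34, with 19 of Spink1, 4 of Prss29, 3 each of Prss28 and Foxa2 and 2 of Wfdc3, beside a gate sum of 44, 22 UMIs of Cbs and 2 of Calb1. The other had 6045 UMIs, 27.5% of them mt-, and 3 of Cxcl15. Whether these barcodes held damaged cells or more than 1 cell was not tested.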

How the results depend on the processing

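The lower d/d share of Syn2-gate cells kept its direction in every setting tried. The difference of -10.1 percentage points became -7.79 with a gate sum of at least 3, -8.11 after thinning to 500 UMIs, -4.94 without Slc2a3 and -3.94 as a share of all barcodes, and otherwise ran from -10.7 to -8.36. Known gland genes in f/f members over other gated cells had log2 ratios of 2.85 to 3.61 in 13 alternatives. For d/d against f/f members the known gland ratio of -1.20 turned to 1.69 without the mt- limit, where 2 d/d barcodes entered, and thinning gave no value. The 14 genes past 2-fold higher in d/d members became 6 without the mt- limit, 2 after thinning, 2 without Slc2a3, 104 at 50 UMIs per gene, 4 at 200 UMIs and 6 with TMM scaling. The 59 lower became 103, 8, 12, 227, 7 and 111 in the same settings, and 35 when no stromal gate UMI was allowed. Fewer genes were counted in several of these, with 24 after thinning and 78 without Slc2a3 against 338, while 1325 reached 50 UMIs. Between classes in f/f, thinning gave 341 higher and 681 lower genes in place of 557 and 1035. Reversed ratios of d/d over f/f were -0.24 for Hdc and -0.55 for Hook1 (without Slc2a3), -0.27 for Nt5c2 and 0.17 for Papola (thinned), and -0.091 for Mbd2 and 0.0087 for Tmem176b (no mt- limit). The causes were not tested beyond these counts. Of 386 values for named genes between classes, 382 stayed within the counting interval of the value reported, as did 190 of 192 list medians and 355 of 377 values of d/d over f/f. Most settings kept most of the same barcodes, and genes with few UMIs had wide intervals, so these counts are a weak check. No paired analysis was possible because each genotype had 1 library and the labels give no shared replicate numbers. Depth limited the d/d members most, since 1 UMI there is worth 61.6 CPM.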
